A study of Homo sapiens with 18 samples.

Results

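The genes described here are 9 receptors and lineage factors by which breast tumours are commonly typed, namely the hormone receptor genes ESR1 and PGR, the growth factor receptor genes ERBB2, ERBB3 and EGFR, the luminal factors GATA3 and FOXA1, and the basal and neural crest factors TP63 and SOX10. They were chosen by name, and their rows were found by the Ensembl identifier without its version. Of the 9, 8 had a row among the 35044 genes of the count table, and PGR was not analysed here. RNA-seq was performed on HCC1937-EV, the BRCA1-mutated breast cancer cell line HCC1937 with an empty vector, and on HCC1937-OE-BRCA1, labelled as HCC1937 with wild-type BRCA1 overexpressed. Each line was sequenced untreated (0 h) and after 12 h and 24 h with olaparib, a PARP inhibitor (PARPi), with 3 libraries for each of the 6 conditions, or 18 libraries. Line, time and replicate were read from the sample titles, although a treatment label names olaparib at 0 h as well and a genotype label calls HCC1937-EV WT. The sources used here do not say whether a line is 1 clone or a pool, what promoter drives BRCA1, or whether replicates were separate cultures, so the p-values measure the spread between libraries, which may be technical. Total counts lay between 15081973 and 17571922 per library. Levels are counts scaled to library size (CPM) on library sizes normalized by the trimmed mean of M values (TMM).

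ESR1 encodes the oestrogen receptor and PGR the progesterone receptor, nuclear receptors that bind DNA once their hormone is bound. EGFR, ERBB2 (HER2) and ERBB3 encode receptor tyrosine kinases of the ERBB family, which pair with each other on the cell surface, ERBB2 without a ligand of its own and ERBB3 with little kinase activity of its own. GATA3 and FOXA1 are transcription factors of luminal mammary cells, where FOXA1 opens chromatin for the oestrogen receptor. TP63 is a p53 family factor of basal epithelium, and SOX10 a factor of the neural crest that is also used as a marker of basal-like breast tumours. Tumours of BRCA1 mutation carriers are often negative for ESR1, PGR and amplified ERBB2.

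BRCA1, the transfected gene, was measured first. Without olaparib, HCC1937-EV held 126, 111 and 117 CPM of BRCA1, and HCC1937-OE-BRCA1 held 166, 122 and 127 CPM. The ranges of the lines overlapped. The difference of 0.24 on the log2 scale did not pass the test (SE 0.11, quasi-likelihood test of edgeR, Benjamini-Hochberg adjusted p = 0.0654). It passed in 5 of 8 alternative settings (log2 0.27 to 0.40 in those) and without untreated HCC1937-OE-BRCA1 replicate 2 (0.32, adjusted p = 0.0215) or 3 (0.29, adjusted p = 0.0398). Over all 6 fits with a library left out, the difference ranged from 0.09 to 0.32, with an adjusted p of up to 0.45. At 24 h the level was 161 ± 7.08 CPM (SD, n = 3) in HCC1937-OE-BRCA1 and 94.5 ± 4.47 CPM in HCC1937-EV, and that difference of 0.77 passed the test (adjusted p = 3.17e-06). The counts do not tell a transfected transcript from the resident one, and the names of the lines are used here as the labels give them. At the protein level, the authors reported truncated BRCA1 in both lines and transfected wild-type BRCA1 as well in HCC1937-OE-BRCA1. Protein was not measured here.

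The labelled cell type, breast cancer cells, was checked against cell type markers, and HCC1937-EV stood apart from it in part. Of 5 epithelial markers, the keratins KRT8 (1886 ± 67.8 CPM, SD, n = 3) and KRT18 (875 ± 7.76 CPM) were high in untreated HCC1937-EV. The other 3, EPCAM (0.0206 CPM), CDH1, the E-cadherin gene (0.659 CPM), and KRT19 (0.227 CPM), were near 0 there. In untreated HCC1937-OE-BRCA1 all 5 were above 1 CPM, with EPCAM at 310 ± 50.8 CPM, CDH1 at 434 ± 42.9 CPM and KRT19 at 8.50 ± 1.98 CPM.
The 5 basal keratin genes (KRT5, KRT14, KRT17, KRT6A and KRT6B) together reached 2.73, 3.39 and 4.02 CPM in HCC1937-EV without olaparib, most of it KRT17, with KRT6B at 0 in all 9 HCC1937-EV libraries. In HCC1937-OE-BRCA1 without olaparib they reached 3034, 3840 and 4086 CPM, led by KRT17 and KRT5. The collagen gene COL1A1 and PDGFRB, markers of fibroblasts, went the other way, at 98.6 ± 9.31 and 8.17 ± 0.631 CPM in HCC1937-EV against 7.45 ± 1.52 and 0.0210 CPM in HCC1937-OE-BRCA1. The other 3 fibroblast markers, COL1A2, DCN and LUM, were below 1 CPM in both lines.
Of the leukocyte markers, CD14 was at 0.619 ± 0.166 CPM in untreated HCC1937-EV and 40.6 ± 8.39 CPM in untreated HCC1937-OE-BRCA1, and CD68 was at 0.0206 and 0.124 CPM. Summed endothelial markers were 1.11, 1.85 and 2.36 CPM against 17.2, 17.98 and 20.2 CPM, led by PECAM1. Adipocyte and melanocyte or Schwann cell markers summed to at most 4.85 CPM in any library.
Each difference between the lines below therefore stands beside a difference in epithelial and basal keratin genes of the whole culture, and BRCA1, the vector and other differences between the cultures cannot be told apart in this design. Whether both cultures were HCC1937, as labelled, was not tested. BRCA1 itself was not called higher in untreated HCC1937-OE-BRCA1 but was called higher there at 24 h. The line differences are given as differences between the 2 labelled cultures, and the part of BRCA1 in them was not tested.

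**Figure D1:**
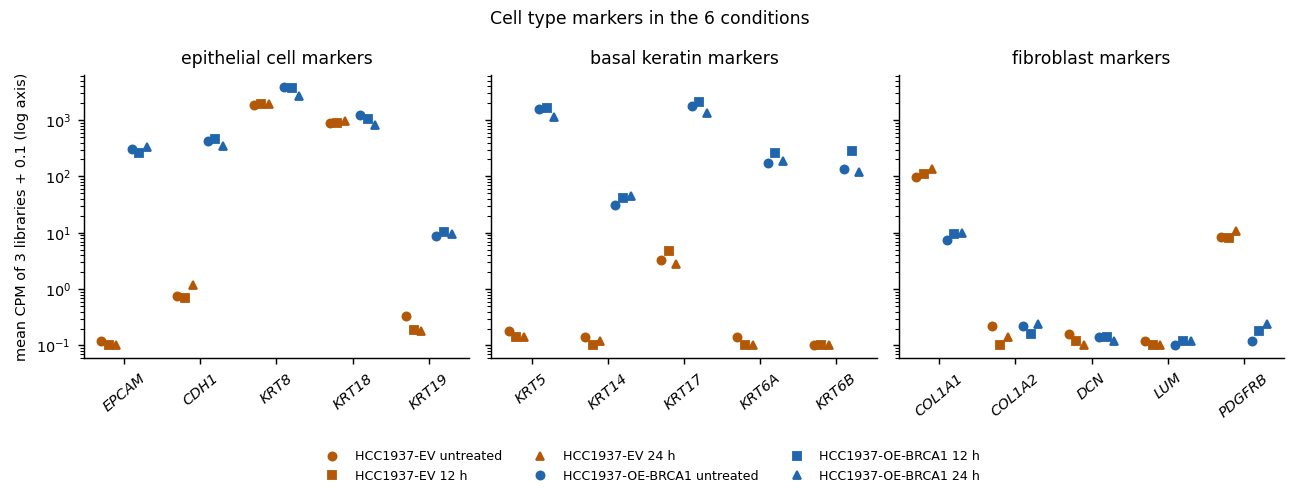
Mean level of 3 libraries (CPM plus 0.1, log axis) of each epithelial, basal keratin and fibroblast marker in the 6 conditions, with HCC1937-EV in brown, HCC1937-OE-BRCA1 in blue and the marker shape giving the time. KRT8 and KRT18 are high in both lines, whereas EPCAM, CDH1, KRT19 and the 5 basal keratins lie far lower in HCC1937-EV, most of them at the bottom of the axis, and COL1A1 and PDGFRB are higher there.

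The order of the genes differed between the lines when levels were set per kilobase of exon. In untreated HCC1937-EV the mean level was 15.5 ± 0.696 CPM per kilobase for EGFR and 13.8 ± 1.40 for ERBB2, then 4.39 ± 0.274 for FOXA1, 2.09 ± 0.229 for ERBB3, 0.696 ± 0.147 for GATA3, 0.162 ± 0.0270 for ESR1, 0.0611 ± 0.0346 for SOX10 and 0.00556 for TP63 (SD, n = 3). In untreated HCC1937-OE-BRCA1 it was 23.7 ± 4.29 CPM per kilobase for EGFR, 16.5 ± 1.97 for ERBB2, 16.2 ± 1.04 for GATA3, 13.0 ± 1.73 for ERBB3, 7.48 ± 0.700 for FOXA1, 5.73 ± 0.577 for TP63, 1.01 ± 0.153 for ESR1 and 0.0778 ± 0.0476 for SOX10. EGFR and ERBB2 were thus the highest of the 8 per kilobase in both lines without treatment, and GATA3 stood between ERBB2 and ERBB3 in HCC1937-OE-BRCA1 but below FOXA1 and ERBB3 in HCC1937-EV. In HCC1937-OE-BRCA1 the levels of ERBB2 and GATA3 differed by less than either SD. The length used was that of all annotated exons of a gene merged, 10321 bases for ERBB2 and 3436 for GATA3. It can exceed the length of the transcript that is expressed. Without division by length, ERBB2 was at 171 CPM and GATA3 at 55.7 CPM there. The order with the lengths of expressed transcripts was not tested.

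**Figure D2:**
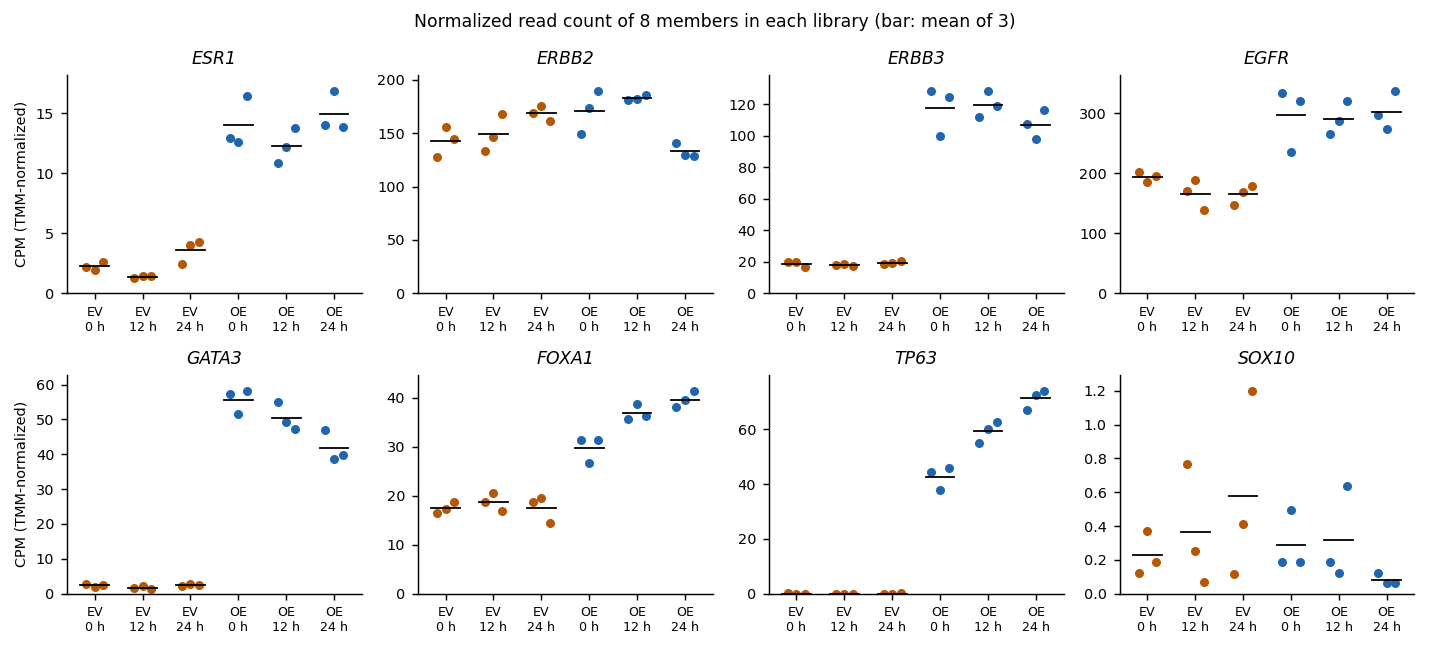
Level of each of the 8 genes (CPM, linear axis from 0) in each of the 18 libraries, with HCC1937-EV (EV) in brown, HCC1937-OE-BRCA1 (OE) in blue and a bar at the mean of 3 libraries. ESR1, ERBB3, EGFR, GATA3, FOXA1 and TP63 lie higher in every HCC1937-OE-BRCA1 library than in any HCC1937-EV library, and ERBB2 and SOX10 overlap between the lines.

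Among the hormone receptors, ESR1 (ENSG00000091831.24, chromosome 6, 151656691 to 152129619, + strand, GRCh38, GENCODE 29) was low in HCC1937-EV and several-fold higher in HCC1937-OE-BRCA1. The 3 HCC1937-EV libraries held 2.17, 1.92 and 2.65 CPM untreated, 1.28, 1.44 and 1.43 CPM at 12 h, and 2.48, 4.01 and 4.31 CPM at 24 h. The 3 HCC1937-OE-BRCA1 libraries held 12.9, 12.6 and 16.4 CPM untreated, 10.9, 12.2 and 13.8 CPM at 12 h, and 14.01, 16.9 and 13.9 CPM at 24 h. No HCC1937-EV library reached the lowest of HCC1937-OE-BRCA1, and in HCC1937-OE-BRCA1 the untreated libraries overlapped those of 12 h and those of 24 h, while every 24 h library lay above every 12 h library. The log2 fold change between the lines was 2.63 (SE 0.20, 6.21-fold) untreated, 3.15 (SE 0.22) at 12 h and 2.05 (SE 0.19) at 24 h, and each passed the test (edgeR, adjusted p = 1.6e-10, 3.14e-11 and 3.2e-09). Even so, the 676 reads of ESR1 in the 3 untreated HCC1937-OE-BRCA1 libraries were few beside the 14327 of EGFR.

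Among the growth factor receptors, EGFR (ENSG00000146648.20, chromosome 7, 55019021 to 55211628, + strand) had more reads than any other member in both untreated lines. It was at 202, 185 and 195 CPM in untreated HCC1937-EV and at 334, 235 and 321 CPM in untreated HCC1937-OE-BRCA1. With olaparib it was at 170, 189 and 139 CPM (12 h) and 147, 168 and 179 CPM (24 h) in HCC1937-EV, and at 266, 286 and 320 CPM (12 h) and 296, 273 and 337 CPM (24 h) in HCC1937-OE-BRCA1. The groups did not overlap at any time. The log2 fold change was 0.61 (SE 0.13) untreated, 0.81 (SE 0.13) at 12 h and 0.88 (SE 0.13) at 24 h (edgeR, adjusted p = 0.000306, 1.34e-05 and 4.67e-06).
ERBB3 (ENSG00000065361.17, chromosome 12, 56076799 to 56103505, + strand) showed the largest line difference of the 3 receptors. It was at 20.1, 20.0 and 16.5 CPM in untreated HCC1937-EV and at 128, 99.7 and 125 CPM in untreated HCC1937-OE-BRCA1. All 9 HCC1937-EV libraries lay between 16.5 and 20.2 CPM and all 9 HCC1937-OE-BRCA1 libraries between 98.2 and 129 CPM. The log2 fold change was 2.64 (SE 0.12, 6.24-fold) untreated, 2.73 (SE 0.12) at 12 h and 2.46 (SE 0.12) at 24 h (edgeR, adjusted p = 2.02e-14, 1.22e-14 and 5.5e-14).
ERBB2 (ENSG00000141736.14, chromosome 17, 39687914 to 39730426, + strand) differed least, and its order turned with time. It was at 127, 156 and 144 CPM untreated, 134, 146 and 168 CPM at 12 h, and 169, 175 and 161 CPM at 24 h in HCC1937-EV. In HCC1937-OE-BRCA1 it was at 149, 174 and 190 CPM untreated, 181, 182 and 186 CPM at 12 h, and 140, 129 and 129 CPM at 24 h. The untreated groups overlapped, whereas at 12 h every HCC1937-OE-BRCA1 library was higher and at 24 h every one was lower. The log2 fold change was 0.26 (SE 0.10) untreated, 0.30 (SE 0.10) at 12 h and -0.34 (SE 0.10) at 24 h (edgeR, adjusted p = 0.028, 0.0143 and 0.00532). The untreated call was lost when HCC1937-EV replicate 1 (log2 0.19, adjusted p = 0.157) or replicate 3 (0.27, adjusted p = 0.0606), or HCC1937-OE-BRCA1 replicate 2 (0.25, adjusted p = 0.0611) or replicate 3 (0.18, adjusted p = 0.144), was left out, with no filter on low counts (0.27, adjusted p = 0.0525) and with the compared conditions alone (0.27, adjusted p = 0.0766). The 12 h call was lost without HCC1937-EV 12 h replicate 1 (0.22, adjusted p = 0.0848). With the trend on G and C content and length removed, the 12 h value was 0.15 (adjusted p = 0.0491), and with the replicate block as well the call was lost (0.15, adjusted p = 0.0553). The 24 h call stood in all 6 fits with a library left out.

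Among the luminal factors, GATA3 (ENSG00000107485.18, chromosome 10, 8045378 to 8075203, + strand) had the second largest line difference of the 8 genes. It was at 2.86, 1.85 and 2.47 CPM in untreated HCC1937-EV and at 57.3, 51.6 and 58.1 CPM in untreated HCC1937-OE-BRCA1. After olaparib it was at 1.67, 2.25 and 1.36 CPM (12 h) and 2.12, 2.77 and 2.52 CPM (24 h) in HCC1937-EV, and at 55.0, 49.2 and 47.4 CPM (12 h) and 46.9, 38.7 and 39.7 CPM (24 h) in HCC1937-OE-BRCA1. The libraries of the lines did not overlap at any time. The log2 fold change was 4.54 (SE 0.17, 23.2-fold) untreated, 4.83 (SE 0.17) at 12 h and 4.08 (SE 0.16) at 24 h (edgeR, adjusted p = 1.06e-15, 6.86e-16 and 4.62e-15).
FOXA1 (ENSG00000129514.8, chromosome 14, 37589984 to 37596059, - strand) was expressed in both lines. It was at 16.5, 17.3 and 18.6 CPM in untreated HCC1937-EV and at 31.3, 26.6 and 31.4 CPM in untreated HCC1937-OE-BRCA1. In HCC1937-EV it lay between 14.4 and 20.5 CPM after olaparib, and in HCC1937-OE-BRCA1 at 35.6, 38.6 and 36.3 CPM at 12 h and at 38.0, 39.5 and 41.3 CPM at 24 h. No library of HCC1937-EV reached HCC1937-OE-BRCA1, and the log2 fold change was 0.77 (SE 0.12) untreated, 0.98 (SE 0.12) at 12 h and 1.17 (SE 0.12) at 24 h (edgeR, adjusted p = 1.01e-05, 3.74e-07 and 2.38e-08).

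TP63 (ENSG00000073282.14, chromosome 3, 189631416 to 189897279, + strand) had the largest line difference of the 8 genes. Of the 9 HCC1937-EV libraries, untreated replicate 1 and 24 h replicate 3 held 2 reads each and the other 7 held 0, where 3 reads over the untreated group would be 0.0619 CPM. In HCC1937-OE-BRCA1 it was at 44.3, 37.9 and 46.0 CPM untreated, at 55.2, 60.1 and 62.9 CPM at 12 h and at 67.2, 72.6 and 74 CPM at 24 h. The 2 and 2066 reads of the untreated groups gave a ratio of 1036 (95% Clopper-Pearson interval 286 to 8560, for counting error only). At 12 h HCC1937-OE-BRCA1 was at least 917-fold higher than the level of 3 reads over the HCC1937-EV group. The differences passed the test at each time (edgeR, adjusted p = 3.4e-15 untreated, 1.12e-15 at 12 h and 6.04e-16 at 24 h).
SOX10 (ENSG00000100146.18, chromosome 22, 37970686 to 37987422, - strand) stayed near the floor in both lines. Its counts were 2, 6 and 3 reads in untreated HCC1937-EV, 12, 4 and 1 at 12 h, and 2, 7 and 20 at 24 h. In HCC1937-OE-BRCA1 they were 3, 8 and 3 reads untreated, 3, 2 and 10 at 12 h, and 2, 1 and 1 at 24 h. Single libraries spread over a range of 1 to 20 reads, and the lines overlapped at each time. The difference passed the test at 24 h (log2 -2.70, SE 0.96, edgeR, adjusted p = 0.0155), but not untreated (0.34, adjusted p = 0.742) or at 12 h (-0.22, adjusted p = 0.818). HCC1937-EV 24 h replicate 3 held 20 of the 29 reads of its group, and without it the 24 h call was lost (-1.61, adjusted p = 0.186), as it was with the replicate block and the trend on G and C content and length removed (-2.32, adjusted p = 0.0513).

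In the untreated lines, 7 of the 8 genes were called higher in HCC1937-OE-BRCA1 and none lower, where 39.4% of the 18335 genes tested were called higher and 33.3% lower. At 12 h the count was again 7 higher (38.8% of all genes) and none lower (34.1%), without SOX10. At 24 h it was 6 higher (39.9%) and 2 lower (34.0%), the latter ERBB2 and SOX10. The median log2 difference of the 8 genes was 1.70 untreated, 1.85 at 12 h and 1.61 at 24 h, against 0.11, 0.08 and 0.12 over all genes tested. Of all genes, 17.6% were called higher by over 2 on the log2 scale without treatment, as ESR1, ERBB3, GATA3 and TP63 were. Fewer cells of a type and less RNA per cell cannot be told apart in such cultures.

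**Figure D3:**
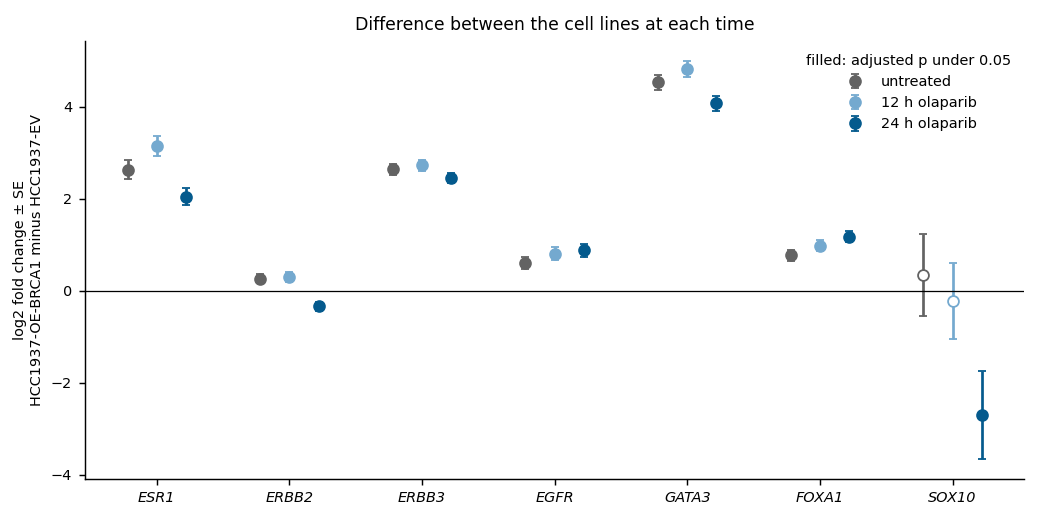
Log2 fold change (± SE) of HCC1937-OE-BRCA1 against HCC1937-EV, untreated and at 12 h and 24 h of olaparib, for 7 genes, with filled points for an adjusted p under 0.05. ESR1, ERBB3, EGFR, GATA3 and FOXA1 stay above 0 at the 3 times, ERBB2 crosses from 0.26 to -0.34, and TP63 is left out because its fitted value rests on a group with 2 reads or none.

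A region before a listed start site is shown for TP63 and GATA3, the genes with the largest line differences. It is also shown for EGFR, the member with the most reads in both untreated lines. Each is 250 bases upstream of the first RefSeq start (GRCh38.p14) in the set of regions used, 5′ to 3′ on the gene's strand. That set held 1 start for TP63, 6 for GATA3 and 2 for EGFR. Which start these cells used was not tested. Capitals mark matches to the AP-2 motif GCCNNNGGC, which 19.8% of 35116 such regions hold.
TP63, chr3:189631139-189631388, + strand: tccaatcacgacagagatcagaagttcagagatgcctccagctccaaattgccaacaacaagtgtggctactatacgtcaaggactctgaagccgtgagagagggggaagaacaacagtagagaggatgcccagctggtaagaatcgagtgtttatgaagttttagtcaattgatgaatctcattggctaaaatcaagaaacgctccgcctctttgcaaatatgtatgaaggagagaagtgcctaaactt
GATA3, chr10:8045083-8045332, + strand: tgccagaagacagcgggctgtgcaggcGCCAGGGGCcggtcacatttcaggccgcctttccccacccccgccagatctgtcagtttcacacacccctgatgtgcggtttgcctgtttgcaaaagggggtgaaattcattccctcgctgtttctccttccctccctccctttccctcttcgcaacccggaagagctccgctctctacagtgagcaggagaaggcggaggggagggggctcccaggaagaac
EGFR, chr7:55018767-55019016, + strand: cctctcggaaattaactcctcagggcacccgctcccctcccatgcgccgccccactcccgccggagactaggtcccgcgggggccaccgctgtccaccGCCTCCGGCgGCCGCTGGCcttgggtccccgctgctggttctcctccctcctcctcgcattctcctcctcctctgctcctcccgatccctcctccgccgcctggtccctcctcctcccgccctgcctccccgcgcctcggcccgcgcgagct
The G and C content was 44.0% for TP63, 60.8% for GATA3 and 73.6% for EGFR, against a median of 58.0% over all regions. Both strands were searched for 8 motifs, and 7 of the 9 genes had a region. The palindromic oestrogen response element, held by 0.0399% of all regions, and the nuclear receptor motif AGGTCA (12.1%), which shares the letters GGTCA with it, matched in none of those 7 genes' regions, and neither did the forkhead motif TGTTTAC (2.98%) or the GATA motif AGATAA (9.17%). AP-2 also matched at starts of PGR. The SOX motif ACAATG (9.29%) matched at another listed GATA3 start, and the AP-1 motif TGANTCA (6.57%) at starts of ERBB2, EGFR and GATA3. The TATA box TATAAA (10.7%) matched at other listed starts of EGFR and GATA3. A match is a description of letters and not of a bound site.

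The next question was whether olaparib moved these genes within a line. At 12 h no member was called in either line, where 0.0436% of genes were called in HCC1937-EV (8 genes, and 2963 at an unadjusted p under 0.05) and 2.31% in HCC1937-OE-BRCA1. With DESeq2's Wald test, 302 and 691 genes were called. The log2 value at 12 h was -0.70 for ESR1 in HCC1937-EV (SE 0.25, edgeR, adjusted p = 0.191) and 0.47 for TP63 in HCC1937-OE-BRCA1 (SE 0.15, adjusted p = 0.129). The TP63 libraries of 12 h did not overlap those of 0 h, and TP63 was called under 4 of 8 alternative settings. In none of the 6 fits with a library left out was TP63 called (log2 0.40 to 0.53).

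At 24 h ESR1 was the member called in HCC1937-EV, where 13.7% of all genes were called. Its mean went from 2.25 ± 0.374 to 3.60 ± 0.983 CPM (SD, n = 3), a log2 fold change of 0.68 (SE 0.22, edgeR, adjusted p = 0.0432), and the lowest 24 h library (2.48 CPM) was below the highest untreated one (2.65 CPM). The call was lost with the 9 HCC1937-EV libraries alone (0.68, adjusted p = 0.0868) and with the compared conditions alone (0.68, adjusted p = 0.0531). It was also lost without untreated replicate 1 (0.65, adjusted p = 0.14), 2 (0.58, adjusted p = 0.136) or 3 (0.80, adjusted p = 0.0631), and without 24 h replicate 2 (0.59, adjusted p = 0.161) or 3 (0.52, adjusted p = 0.15). For the other 5 genes with over 100 reads a group, the log2 value in HCC1937-EV at 24 h was 0.24 for ERBB2, 0.05 for ERBB3, -0.24 for EGFR, 0.05 for GATA3 and 0.01 for FOXA1, none of them called. Of the cell type markers, COL1A1 rose in HCC1937-EV over the same time (0.44, adjusted p = 0.0408), and its part in these results was not tested.

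At 24 h in HCC1937-OE-BRCA1, TP63 and FOXA1 rose and ERBB2 fell, where 4.71% of all genes were called higher and 3.55% lower. TP63 went from 42.8 ± 4.30 to 71.3 ± 3.59 CPM (log2 0.74, SE 0.15, 1.67-fold, edgeR, adjusted p = 0.0042), with every 24 h library above every 12 h library and every 12 h library above every untreated one. The TP63 call stood in all 6 fits with a library left out (log2 0.66 to 0.79) and with the 9 HCC1937-OE-BRCA1 libraries alone (0.71, adjusted p = 0.00107).
FOXA1 went from 29.8 ± 2.79 to 39.6 ± 1.68 CPM (log2 0.41, SE 0.12, edgeR, adjusted p = 0.0371), and ERBB2 from 171 ± 20.3 to 133 ± 6.51 CPM (log2 -0.36, SE 0.10, adjusted p = 0.0331), without overlap between the 24 h and the untreated libraries of either gene. Both calls stood when untreated replicate 1 was left out (FOXA1 0.45, adjusted p = 0.0231, ERBB2 -0.45, adjusted p = 0.00535). They were lost without each of the other 5 libraries in turn and with the compared conditions alone (FOXA1 0.39, adjusted p = 0.104, ERBB2 -0.38, adjusted p = 0.089), and that of FOXA1 also with no filter on low counts (0.36, adjusted p = 0.137). FOXA1 then lay at 0.34 and 0.45 without untreated replicates 2 and 3 and at 0.44, 0.41 and 0.38 without 24 h replicates 1, 2 and 3 (adjusted p = 0.182, 0.0589, 0.0712, 0.0928 and 0.149), and ERBB2 at -0.35 and -0.28, and at -0.40, -0.35 and -0.34 (adjusted p = 0.102, 0.147, 0.0624, 0.114 and 0.143).
Without untreated replicate 1, 3329 genes were called at 24 h in HCC1937-OE-BRCA1 instead of 1515, and BRCA1 passed (0.37, adjusted p = 0.0176) where it had not with all libraries (0.22, adjusted p = 0.242). GATA3 went from 55.7 ± 3.57 to 41.8 ± 4.46 CPM with no overlap, and its log2 value of -0.41 (SE 0.13) missed the threshold (adjusted p = 0.0534), while 7 of 9 alternative settings called it. None of the 6 fits with a library left out called GATA3 (log2 -0.50 to -0.36). ERBB3 (-0.13), EGFR (0.03) and ESR1 (0.09) were not called.

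**Figure D4:**
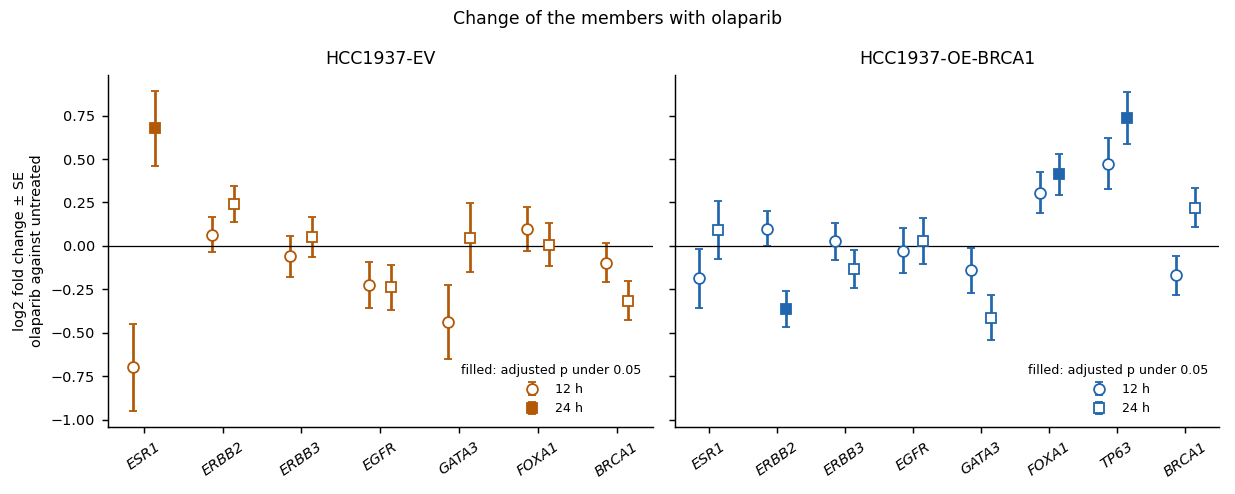
Log2 fold change (± SE) of olaparib against untreated in HCC1937-EV and HCC1937-OE-BRCA1, with circles for 12 h, squares for 24 h and filled symbols for an adjusted p under 0.05. ESR1 is filled in HCC1937-EV at 24 h, and ERBB2, FOXA1 and TP63 in HCC1937-OE-BRCA1 at 24 h, while EGFR and ERBB3 stay within 0.24 of 0. SOX10, and TP63 in HCC1937-EV, have too few reads and are left out.

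The difference between the lines in the 24 h response was tested directly. It passed for ERBB2, which had opposite signs in the lines (0.24 in HCC1937-EV and -0.36 in HCC1937-OE-BRCA1), with a difference of -0.60 (SE 0.15, edgeR, adjusted p = 0.00782). It passed for 1 of the 8 members, where 19.4% of all genes were called. The ERBB2 difference was called in all 8 alternative settings (-0.66 to -0.44) and in all 12 fits with a library left out (-0.69 to -0.52). It did not pass for FOXA1 (0.41, adjusted p = 0.103), ESR1 (-0.59, adjusted p = 0.141), GATA3 (-0.46, adjusted p = 0.182), EGFR (0.27, adjusted p = 0.34), ERBB3 (-0.18, adjusted p = 0.454), SOX10 (-3.04, adjusted p = 0.114) or TP63 (0.79, SE 1.39, adjusted p = 0.773), the last resting on 2 reads in HCC1937-EV. The ESR1 difference passed without HCC1937-EV 24 h replicate 1 (-0.80, adjusted p = 0.0442), and those of ESR1 and FOXA1 passed with the trend on G and C content and length removed (-0.87, adjusted p = 0.0205, and 0.51, adjusted p = 0.0313). BRCA1, set beside the members, also passed (0.54, SE 0.16, adjusted p = 0.023), with a call in 6 of 12 fits with a library left out. Its call was lost with the same trend removed (0.20, adjusted p = 0.0577, and 0.0708 with the replicate block). At 12 h no member passed, where 0.518% of all genes were called.

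The counts of the 9 related lists stand against the shares of all genes given above for the untreated lines (39.4% higher, 33.3% lower) and for HCC1937-OE-BRCA1 at 24 h (4.71% higher, 3.55% lower), and in HCC1937-EV at 24 h against 8.62% higher and 5.12% lower. Of 11 ligands of the ERBB receptors listed, 10 were tested, and 7 were higher and 2 lower in untreated HCC1937-OE-BRCA1, with a median log2 difference of 1.71. Epiregulin (EREG), amphiregulin (AREG) and betacellulin (BTC), ligands of EGFR, had no read in any of the 9 HCC1937-EV libraries. In untreated HCC1937-OE-BRCA1 they were at 10.2 ± 3.37, 7.59 ± 2.22 and 7.08 ± 1.17 CPM, at least 166-fold, 123-fold and 115-fold higher than 3 reads over the group. Neuregulin 4 (NRG4), a ligand of ERBB4 named here after its values were seen, went the other way, at 22.5 ± 0.797 CPM in HCC1937-EV and 2.11 ± 0.712 CPM in HCC1937-OE-BRCA1.
With olaparib no ligand was called in HCC1937-EV, at 12 h or at 24 h. In HCC1937-OE-BRCA1 at 24 h, 3 ligands rose and 1 fell. NRG1, a ligand of ERBB3, fell from 21.4 ± 2.41 to 10.6 ± 1.11 CPM (log2 -1.02, edgeR, adjusted p = 0.00203), NRG2 rose from 0.455 ± 0.1302 to 2.70 ± 0.538 CPM (log2 2.55, adjusted p = 0.000165) and EGF from 3.81 ± 0.721 to 7.32 ± 0.346 CPM (log2 0.94, adjusted p = 0.00869). HBEGF, named after its values were seen, rose from 10.5 ± 1.30 to 16.8 ± 1.92 CPM (log2 0.68, adjusted p = 0.00564). NRG1 and NRG2 kept their calls in all 6 fits with a library left out, and EGF in 5.

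Of 17 genes of ERBB signalling and its feedback, 16 were tested, and 10 were higher and 4 lower in untreated HCC1937-OE-BRCA1, with a median of 0.77. The largest differences were those of the feedback inhibitors SPRY4 (log2 3.05, edgeR, adjusted p = 2.14e-08), ERRFI1 (2.24, adjusted p = 9.61e-14) and LRIG1 (2.16, adjusted p = 1.13e-08). In HCC1937-OE-BRCA1 at 24 h, 4 rose and none fell. DUSP6, a phosphatase of ERK, went from 5.40 ± 0.632 to 13.9 ± 0.990 CPM (log2 1.36, edgeR, adjusted p = 5.07e-05) and was at 13.4 ± 1.44 CPM at 12 h. ERRFI1, which binds and inhibits EGFR, went from 149 ± 13.4 to 219 ± 8.60 CPM (log2 0.55, adjusted p = 0.00162), and CBLB, a ubiquitin ligase, rose by 0.67 (adjusted p = 0.0363). The CBLB call was lost with the compared conditions alone (0.65, adjusted p = 0.0819) and with the 9 HCC1937-OE-BRCA1 libraries alone (0.64, adjusted p = 0.0668). The fourth, SPRY2, rose by 0.55 (adjusted p = 0.00878).
In HCC1937-EV at 24 h none of the 16 rose and 4 fell, namely the adaptor GAB1 (-0.63, edgeR, adjusted p = 0.0186), the RAS exchange factor SOS1 (-0.62, adjusted p = 0.012), the inhibitor SPRED1 (-0.46, adjusted p = 0.0363) and the protease ADAM10 (-0.43, adjusted p = 0.0147). With the trend on G and C content and length removed, the calls of GAB1 (-0.32, adjusted p = 0.0671) and SPRED1 (-0.20, adjusted p = 0.253) were lost and that of SOS1 stood (-0.33). With a library left out, SOS1 was called in 4 of 6 fits, GAB1 in 3 and SPRED1 in 2, and SPRED1 was also lost with no filter on low counts (-0.45, adjusted p = 0.0566). The difference between the lines in the 24 h response passed for 7 of the 16, each with the higher response in HCC1937-OE-BRCA1, where 8.16% of all genes passed in that direction and 11.2% in the other. ADAM10 and SPRY2 were named after their values were seen.

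Genes beside ERBB2 on chromosome 17 are often amplified with it, and 6 of 9 listed were tested. In untreated HCC1937-OE-BRCA1, 3 were higher and 1 lower. PPP1R1B, a phosphatase inhibitor, had 2 reads in untreated HCC1937-EV and 1440 in HCC1937-OE-BRCA1, a ratio of 722 (95% Clopper-Pearson interval 200 to 5968). GRB7, an adaptor that binds ERBB2, was at 13.9 ± 0.328 and 38.9 ± 3.11 CPM (log2 1.49, edgeR, adjusted p = 1.87e-08), and MIEN1 at 25.2 ± 3.08 and 17.1 ± 1.87 CPM (log2 -0.56, adjusted p = 0.0011). PGAP3 (0.62, adjusted p = 0.0307) and STARD3 (0.37, adjusted p = 0.0295) passed the test in HCC1937-EV at 24 h, each with a call in 1 of 6 fits with a library left out. Both calls were lost with the trend removed, at 0.29 (adjusted p = 0.111) and 0.12 (adjusted p = 0.203). None of the 6 was called with olaparib in HCC1937-OE-BRCA1.

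Of 22 listed genes of oestrogen receptor signalling and luminal co-expression, 17 were tested, and 8 were higher and 7 lower in untreated HCC1937-OE-BRCA1, with a median of -0.075, which is close to the shares among all genes. The 3 largest differences were those of CA12, a carbonic anhydrase (at least 157-fold), IGFBP4, a binding protein of insulin-like growth factors (0.124 ± 0.0616 to 76.7 ± 13.9 CPM), and AGR2, a secretory pathway protein (log2 7.28, edgeR, adjusted p = 1.56e-14). The receptor gene IGF1R, chosen here after its values were seen, was lower, at 150 ± 3.62 CPM in HCC1937-EV and 18.2 ± 4.80 CPM in HCC1937-OE-BRCA1. In HCC1937-OE-BRCA1 at 24 h, GREB1, an oestrogen receptor target, rose from 2.56 ± 0.488 to 5.20 ± 0.656 CPM (log2 1.02, edgeR, adjusted p = 0.0048). CA12 rose there by 0.73 (adjusted p = 0.0185) and XBP1 by 0.32 (adjusted p = 0.031). The cyclin gene CCND1, named after its values were seen, fell there by 0.28 (adjusted p = 0.033). Untreated HCC1937-EV held more reads of GREB1 (337 against 124) and XBP1 (6851 against 4620) than untreated HCC1937-OE-BRCA1, and fewer of CA12 (0 against 470). In HCC1937-EV at 24 h, ANXA9 rose by 0.72 (adjusted p = 0.0145) and STC2 fell by 0.34 (adjusted p = 0.0206), with calls in 3 and 1 of 6 fits with a library left out. ANXA9 was lost with the trend removed (0.46, adjusted p = 0.1) and STC2 with no filter on low counts (-0.33, adjusted p = 0.0611).

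Of 16 other nuclear and steroid receptors, 13 were tested, and 7 were higher and 5 lower in untreated HCC1937-OE-BRCA1, with a median of 0.73. The mineralocorticoid receptor NR3C2 (log2 -3.91, edgeR, adjusted p = 1.1e-08) and the thyroid hormone receptor THRA (-2.10, adjusted p = 2.54e-12) were lower, and GPER1, a membrane receptor for oestrogen, was higher (2.12, adjusted p = 2.12e-11). The orphan receptor ESRRA was called in opposite directions with 24 h of olaparib. It went from 61.9 ± 8.24 to 98.8 ± 2.78 CPM in HCC1937-EV (log2 0.68, adjusted p = 0.0147) and from 181 ± 43.0 to 121 ± 6.14 CPM in HCC1937-OE-BRCA1 (-0.59, adjusted p = 0.0337). With a library left out, the call stood in 2 of 6 fits in HCC1937-EV and 1 of 6 in HCC1937-OE-BRCA1. With the trend on G and C content and length removed both calls stood, at 0.25 and -0.36, and the difference of responses went from -1.26 to -0.61. In HCC1937-EV, NR3C1, the glucocorticoid receptor, fell by 0.43 (adjusted p = 0.0386) and THRA rose by 0.36 (adjusted p = 0.044), with calls in 1 and none of 6 fits with a library left out. With the trend removed they were at -0.16 (adjusted p = 0.128) and 0.13 (adjusted p = 0.259) and were not called.

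Of 19 luminal and epithelial transcription factors and related genes, 17 were tested, and 10 were higher and 4 lower in untreated HCC1937-OE-BRCA1, with a median of 2.17. EHF, an epithelial ETS factor, had no read in untreated HCC1937-EV and 119 ± 19.6 CPM in HCC1937-OE-BRCA1, at least 1927-fold more, and ELF5, of the same family, was at least 50.1-fold higher. GRHL2, which keeps epithelial genes on, was at 0.0824 and 116 ± 8.61 CPM. In HCC1937-OE-BRCA1 at 24 h, EHF rose by 0.51 (edgeR, adjusted p = 0.015) and KLF4 by 0.50 (adjusted p = 0.00227), and none fell. In HCC1937-EV at 24 h, RUNX1 (-0.53, adjusted p = 0.00588), GRHL1 (-0.43, adjusted p = 0.0168) and KLF5 (-0.33, adjusted p = 0.0472) fell and none rose, and the KLF5 call was lost in all 6 fits with a library left out. With the trend removed the GRHL1 call was lost (-0.24, adjusted p = 0.0981), and it stood in 2 of 6 fits with a library left out. RUNX1 was still called with the trend removed, at -0.34. 
The calls of list genes at 24 h were refitted for those with the largest changes, up to 3 per list, and not for the genes named after their values were seen. Of 19 such genes in HCC1937-EV, 3 (SOS1, ESRRA and RUNX1) were called in all 9 alternative settings and 1 (RUNX1) in all 6 fits with a library left out, and 14 lost the call with the trend on G and C content and length removed. Of 18 such genes in HCC1937-OE-BRCA1, 12 were called in all alternative settings that tested them and 9 in all 6 fits with a library left out. EGF was called in 5 of the 6 fits, CA12 in 3, CBLB, XBP1, EHF and FAT2 in 2, and ESRRA, ID4 and FGFR2 in 1. XBP1 was called in 4 of 9 alternative settings (0.24 to 0.30 where it was lost). With the compared conditions alone, the calls of EHF (0.49, edgeR, adjusted p = 0.0545) and FAT2 (0.70, adjusted p = 0.07) were lost.

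Of 18 basal and myoepithelial genes, 16 were tested, and 12 were higher and 2 lower in untreated HCC1937-OE-BRCA1, with a median of 3.98, or 3.17 with genes without a read at their bound. VGLL1 and GABRP had no read in untreated HCC1937-EV and in HCC1937-OE-BRCA1 were higher by at least 2199-fold and 650-fold, and SOX9 had 1 read against 7169, a ratio of 7190 (95% Clopper-Pearson interval 1290 to 284000). With olaparib in HCC1937-OE-BRCA1, GABRP rose by 0.70 (edgeR, adjusted p = 0.00132), and VGLL1 (-0.51, adjusted p = 0.00584) and ID4 (-0.52, adjusted p = 0.0485) fell at 24 h. The ID4 call was lost with the replicate block (-0.52, adjusted p = 0.0702) and with the compared conditions alone (-0.54, adjusted p = 0.0568). SOX2 (0.54, adjusted p = 0.0485) and FOXC1 (0.30, adjusted p = 0.0393) passed the test in HCC1937-EV at 24 h, but neither call stood in any of the 6 fits with a library left out. SOX2 was called in 3 and FOXC1 in 5 of 9 alternative settings, and FOXC1 was at 0.07 with the trend on G and C content and length removed (adjusted p = 0.659).
Of 17 genes known as TP63 targets, all 17 were tested, and 16 were higher and none lower in untreated HCC1937-OE-BRCA1, with a median of 3.19. The list does not separate genes that TP63 raises from genes that it lowers, and the part of TP63 in these differences was not tested. The desmosomal cadherins DSC3 and DSG3 were at least 3029-fold and 880-fold higher. While TP63 rose by 0.74 in HCC1937-OE-BRCA1 at 24 h, 5 of the 17 rose and 2 fell, where the median was 0.22 and that of all genes 0.02. FGFR3, a growth factor receptor, fell from 173 ± 28.5 to 95.7 ± 7.24 CPM (-0.86, edgeR, adjusted p = 0.000761), FGFR2 fell by 0.56 (adjusted p = 0.0426, but 0.055 with the replicate block), and FAT2, a cadherin, rose by 0.71 (adjusted p = 0.0388). The others that rose, named after their values were seen, were DSG3 (0.51), the integrins ITGA6 (0.51) and ITGB4 (0.49), and the collagen COL17A1 (0.45). FGFR3 (0.56, adjusted p = 0.0208), SFN (0.56, adjusted p = 0.0219) and COL17A1 (0.48, adjusted p = 0.0438) rose in HCC1937-EV at 24 h, where TP63 had 2 reads. With the trend on G and C content and length removed they were at 0.24, 0.10 and 0.35 and were not called (adjusted p = 0.0901, 0.416 and 0.123), and each was called in 2 of 6 fits with a library left out. JAG1 (-0.47, adjusted p = 0.0118) and ITGA6 (-0.44, adjusted p = 0.0204), named after their values were seen, fell there. Over the same 24 h in HCC1937-OE-BRCA1, KRT5 (0.720-fold, adjusted p = 0.0175), KRT8 (0.706-fold, adjusted p = 0.00705), KRT18 (log2 -0.56, adjusted p = 0.00466) and CDH1 (0.785-fold, adjusted p = 0.0493) fell and CD14 (1.92-fold, adjusted p = 0.000342) and PECAM1 (log2 0.92, adjusted p = 0.00968) rose. The part of these markers in the results above was not tested.

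Of 16 listed genes linked to SOX10 and the neural crest, 13 had a row and 6 were tested. In untreated HCC1937-OE-BRCA1, 3 of them were higher and 1 lower. The endothelin receptor EDNRB had no read in untreated HCC1937-EV, where HCC1937-OE-BRCA1 was higher by at least 245-fold, CRYAB, a small heat shock protein, was 6.55-fold higher (edgeR, adjusted p = 3.56e-09), and MITF, the melanocyte factor, was lower (log2 -2.79, adjusted p = 7.58e-12). CRYAB passed the test in HCC1937-EV at 24 h (0.97, adjusted p = 0.0256), with a call in 2 of 6 fits with a library left out. Its call was lost with the 9 HCC1937-EV libraries alone (0.96, adjusted p = 0.0541) and with the trend removed (0.77, adjusted p = 0.0582, or adjusted p = 0.06 with the replicate block as well). With olaparib none of the 6 was called in HCC1937-OE-BRCA1.

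**Figure D5:**
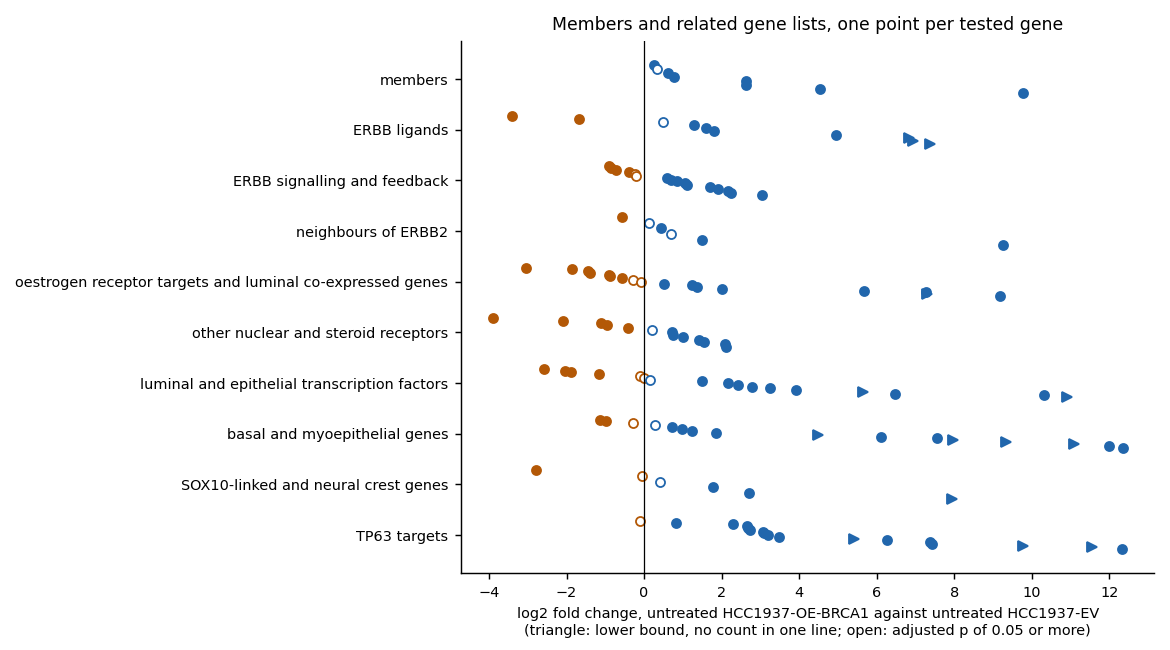
Log2 fold change between the untreated lines (HCC1937-OE-BRCA1 over HCC1937-EV) for each tested member and each tested gene of 9 related lists, with blue for higher, brown for lower, open points for an adjusted p of 0.05 or more and triangles for a lower bound where HCC1937-EV had no read. The TP63 target list has 16 of 17 genes called higher, while the oestrogen receptor list is split between 8 higher and 7 lower. Of all genes tested, 39.4% were called higher and 33.3% lower.

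The genes most like each member over the 18 libraries were found by the root mean square difference of log2 CPM, after each gene's mean was removed, among 12621 protein-coding genes of at least 1 CPM on average. ERBB2 was closest to DHX34 (0.09), EGFR to EPB41L2 (0.09), FOXA1 to SP140L (0.12), ERBB3 to NEURL1B (0.13), ESR1 to CCDC80 (0.25), GATA3 to EMP1 (0.29) and TP63 to ZNF83 (0.38). EMP1 was at 23.9 CPM on average over the HCC1937-EV libraries and 387 CPM over the HCC1937-OE-BRCA1 libraries, and ZNF83 at 0.0133 and 47.2 CPM. The next closest were TM7SF2 and SCNN1A for ESR1, PCBP1 and ZBTB7B for ERBB2, NFIX and CAMK2D for ERBB3, NCOA6 and RNF111 for EGFR, CLIP4 and TCF7 for GATA3, MKNK1 and FAM210B for FOXA1, and VTCN1 and DZIP1 for TP63.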

How the data were processed

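The authors deposited raw counts per gene for 18 libraries (TRIzol RNA, NEBNext Ultra II libraries), as single-library tables and a joint table with equal values. The submitters' processing notes name HISAT2, featureCounts and DESeq2 and the build GRCh38 or hg38. Tool versions, strandedness and the annotation release are not given in the sources used here. Total counts were 15081973 to 17571922 per library. The Clopper-Pearson intervals for single genes were taken on reads summed over a group, so they cover counting error only. Groups were taken from the sample titles. Gene names were matched for 34966 of 35044 identifiers, and positions for 33888 in GENCODE 29.

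The counts were fitted with edgeR 4.0.16 (R 4.3.3, limma 3.58.1, quasi-likelihood test, TMM, filterByExpr by condition, 18335 genes, 1 mean for each of 6 conditions over 18 libraries, biological coefficient of variation 12.9%). Benjamini-Hochberg adjustment over all genes and a threshold of 0.05 were used for 9 comparisons, some of which share libraries (the untreated groups serve both times, and each condition also enters a line difference). A count of 0 was set to 3 counts over the group for a lower bound. Steps were tested on simulated data. Alternatives were DESeq2 1.42.0 (size factors, Wald test), other filters, fewer libraries, a replicate block, a trend on G and C content and length, and leaving out each library. The fit with the 9 libraries of one line alone was chosen after seeing the data. The members and lists were chosen with earlier results of these data known. Named were the members, BRCA1, up to 3 called genes per list with the largest change and at least 1 CPM in a compared group (lines untreated, each line at 24 h), and the 3 genes most like each member. The other genes named were chosen after their values were seen. The values of 2 listed genes are not reported here.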

Additional observations from a re-analysis of the deposited data

Results flagged for a closer look

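The response to 24 h of olaparib differed between HCC1937-OE-BRCA1 and HCC1937-EV, by the test of the difference itself (edgeR, response of HCC1937-OE-BRCA1 minus that of HCC1937-EV, log2), for ERBB2 among the members, at -0.6036, and for BRCA1, at 0.5357. The ERBB2 difference was called in all 12 fits with a library left out, and that of BRCA1 in 6 of 12. With the trend on G and C content and length removed, the BRCA1 value was 0.2043 and was not called (adjusted p = 0.0577).

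The ligands NRG2 (1.9946) and EGF (1.374), the signalling genes DUSP6 (1.6126), CBLB (1.1234), SOS1 (1.0354), GAB1 (0.8268) and ERRFI1 (0.7784), and GREB1 (1.0371) had a higher response in HCC1937-OE-BRCA1. So did the transcription factors KLF4 (0.6539), GRHL1 (0.644), NR3C1 (0.6416), RUNX1 (0.6351) and KLF5 (0.432).

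FGFR3 (-1.422), CRYAB (-1.3141), ESRRA (-1.2614), ANXA9 (-1.128), PGAP3 (-1.0773), SFN (-0.9533) and THRA (-0.5711) had a lower one. Of the 20 list genes in these sentences, 13 were called under all alternative settings and 16 in all fits with a library left out, and 19.4% of all genes were called in this comparison. With the trend removed, GAB1 (0.3875), NR3C1 (0.244), GRHL1 (0.3455), ANXA9 (-0.7545), SFN (-0.2317) and THRA (-0.2235) were not called, and neither was KLF5 with no filter on low counts (0.3739). With a library left out, KLF5 was called in 4 of 12 fits, NR3C1 in 6, THRA in 7 and GREB1 in 10. The calls of SOS1, CBLB, RUNX1, PGAP3, FGFR3 and ESRRA stood in all settings and fits, but their values shrank. At their nearest to 0 they were 0.61, 0.72, 0.35, -0.59, -0.92 and -0.61.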

How the results depend on the processing

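ESR1, ERBB3, EGFR, GATA3, FOXA1 and TP63 kept their line differences at the 3 times in every alternative that tested them. The trend removed the call of the BRCA1 difference of responses at 24 h (0.20, adjusted p = 0.0577, and 0.0708 with the block), and with the block the calls of the ERBB2 line difference at 12 h (0.15, adjusted p = 0.0553) and the SOX10 line difference at 24 h (-2.32, adjusted p = 0.0513). With at least 10 counts in every library, 8774, 8737 and 8871 genes were called between the lines (untreated, 12 h, 24 h), where fewer genes were tested. In HCC1937-EV at 12 h the count of 8 became 302 with DESeq2, 818 with no filter, 0 with the compared conditions alone, 1 with one line alone, 1 with the replicate block, 133 with the trend on G and C content and length and 63 with both. In HCC1937-OE-BRCA1 at 12 h it became 691 with DESeq2, 1120 with the trend and 1091 with both, and 1 member (TP63) was then called, as with one line alone. At 24 h the compared conditions alone gave 2 members (ERBB2 and EGFR) and 5173 genes in HCC1937-EV and 1 member and 809 genes in HCC1937-OE-BRCA1, one line alone gave 0 members in HCC1937-EV, and the trend gave 2835 genes in HCC1937-OE-BRCA1, or 2675 with the block. For the difference of responses at 12 h, DESeq2 called 401 genes, no filter 644, the compared conditions alone 37, the trend 587 and the trend with the block 557, and at 24 h the trend called 3 members, with or without the block. The cause was not tested.

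Of values not called, these turned sign with the trend, alone and with the replicate block: in HCC1937-EV at 12 h ERBB3 (0.0091, 0.01) and BRCA1 (0.0596, 0.0596), and at 24 h GATA3 (-0.1325, -0.1283), FOXA1 (-0.0963, -0.0991) and TP63 (0.1058, 0.1037), in HCC1937-OE-BRCA1 at 12 h ERBB2 (-0.0219, -0.0214) and ERBB3 (-0.0715, -0.069), and at 24 h EGFR (-0.0473, -0.0467), and in the 12 h difference of responses ERBB2 (-0.0977, -0.098), ERBB3 (-0.0806, -0.079) and EGFR (-0.0336, -0.0347). ESR1 in HCC1937-OE-BRCA1 at 24 h was at -0.0043 with the trend, EGFR there at -0.021 with no filter, and FOXA1 in HCC1937-EV at 24 h at -0.007 with at least 10 counts.

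When libraries were left out singly, the number of members called ranged from 6 to 7 between the untreated lines, 6 to 7 at 12 h and 7 to 8 at 24 h, from 0 to 1 in HCC1937-EV and 1 to 3 in HCC1937-OE-BRCA1 at 24 h, and from 1 to 2 for the 24 h difference. The genes called ranged from 1 to 462 (without replicate 1 of 12 h) and 462 to 2227 in HCC1937-EV, 257 to 468 and 644 to 3329 (without untreated replicate 1) in HCC1937-OE-BRCA1, and 49 to 772 and 2062 to 5502 for the difference (both highest without untreated HCC1937-OE-BRCA1 replicate 1), at 12 h and 24 h. Values not called that turned sign were SOX10 between the lines (-0.27 to 0.87 untreated, -1.20 to 0.92 at 12 h), in HCC1937-EV ERBB2 (-0.035 to 0.137) and SOX10 (-0.47 to 1.20) at 12 h and FOXA1 (-0.0848 to 0.1236), TP63 (-2.66 to 2.61), GATA3 (-0.107 to 0.19) and ERBB3 (-0.0542 to 0.0967) at 24 h, in HCC1937-OE-BRCA1 EGFR (-0.1691 to 0.0599), SOX10 (-0.88 to 0.72) and ERBB3 (-0.0788 to 0.087) at 12 h and EGFR (-0.1152 to 0.119) and ESR1 (-0.0071 to 0.2227) at 24 h, and in the difference ERBB2 (-0.058 to 0.1292), SOX10 (-1.55 to 0.58), BRCA1 (-0.1654 to 0.0768) and ERBB3 (-0.0203 to 0.1824) at 12 h and TP63 (-1.87 to 3.40) at 24 h.

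Libraries share replicate numbers across conditions. Their deviations had a median correlation of 0.008 within a line (-0.536 to 0.375, over 0.1 in 7 of 18 pairs). Across lines the median was -0.025 (-0.39 to 0.655, over 0.1 in 9 of 27 pairs). With medians near 0 the numbers were not taken as pairs, though single pairs correlated. The replicate block without the trend changed no call of a member. Among list genes at 24 h the block ended the calls of KLF5 (-0.33, edgeR, adjusted p = 0.0524) and SOX2 (0.54, adjusted p = 0.0542) in HCC1937-EV. In HCC1937-OE-BRCA1 it ended those of ID4 (-0.52, adjusted p = 0.0702) and FGFR2 (-0.56, adjusted p = 0.055). SOX10 in both lines and TP63 in HCC1937-EV were limited by reads.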
